A study of Mus musculus with 14 samples.

Results

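Nestin and 9 genes commonly used to mark pericytes or vascular smooth muscle were described in sorted Nes-GFP+ bone marrow stromal cells (BMSCs): Nes, Cspg4, Pdgfrb, Pdgfra, Mcam, Acta2, Tagln, Myh11, Rgs5 and Des. They are 10 of the 27099 genes counted, and were listed by name with earlier results of these data known. RNA of Nes-GFP+ BMSCs was sequenced from mice with acute myeloid leukemia (AML) and from normal mice, in a Nes-GFP high and a Nes-GFP low population. The AML groups held 2 high and 4 low libraries and the normal groups 2 high and 6 low libraries, 14 in all. Levels are CPM, the count of a gene scaled to a fixed library total after TMM, which corrects totals for differences in composition.

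All mice carried a Nes-GFP reporter, in which regulatory elements of Nes drive green fluorescent protein, and the cells were sorted as GFP+, CD45-, CD31- and DAPI-, with Ter119- added in the study's methods. The AML mice were primary iMLL-AF9 mice, a Tet-on model: the transactivator rtTA, made from ROSA26, switches on a human MLL-AF9 transgene when doxycycline is present. They received doxycycline until leukemia was evident, while the normal mice received sucrose in water, so AML, the transgene and doxycycline cannot be told apart. For the sequenced normal mice the study gives no genotype beyond normal, control or WT, although it names Nes-GFP;rtTA controls elsewhere for the same model. The study used mice of 8 to 12 weeks of both sexes. Some libraries came from 1 mouse and others from a pool of 2, and which is which is not given in the sources used here. P-values measure the spread between these libraries.

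Pericytes and smooth muscle cells wrap blood vessels: pericytes lie along capillaries, and smooth muscle cells form the contractile coat of arterioles and arteries. Endothelial cells recruit them with PDGF ligands, which bind receptors on the mural cell. In the marrow, nestin-expressing perivascular cells lie along vessels and are known for supporting hematopoietic stem cells. No single gene of the set is restricted to 1 cell type, since fibroblastic stroma also expresses PDGF receptors.

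The upstream sequences of Nes and Rgs5, the members with the largest positive difference between the populations, and of Acta2, as a contractile gene, are shown first, each as the 250 bases before the RefSeq start (GRCm38.p6), 5′ to 3′ on the gene's strand. Nes lies at chr3:87970843-87971092 (+), Rgs5 at chr1:169655251-169655500 (+) and Acta2 at chr19:34255374-34255623 (-). Capitals mark matches to the CArG box, the motif bound by serum response factor at smooth muscle genes, written as CC, 6 bases of A or T and GG, here allowing 1 G or C among the 6.
Nes: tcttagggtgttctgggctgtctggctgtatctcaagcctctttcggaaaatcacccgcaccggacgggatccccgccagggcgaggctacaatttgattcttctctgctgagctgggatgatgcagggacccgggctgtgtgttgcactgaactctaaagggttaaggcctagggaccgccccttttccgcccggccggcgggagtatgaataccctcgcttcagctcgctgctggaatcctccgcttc
Rgs5: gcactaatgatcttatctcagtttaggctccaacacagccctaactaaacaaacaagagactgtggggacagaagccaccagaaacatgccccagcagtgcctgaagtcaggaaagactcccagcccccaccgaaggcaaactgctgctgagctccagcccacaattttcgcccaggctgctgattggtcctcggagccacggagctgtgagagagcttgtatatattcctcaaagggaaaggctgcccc
Acta2: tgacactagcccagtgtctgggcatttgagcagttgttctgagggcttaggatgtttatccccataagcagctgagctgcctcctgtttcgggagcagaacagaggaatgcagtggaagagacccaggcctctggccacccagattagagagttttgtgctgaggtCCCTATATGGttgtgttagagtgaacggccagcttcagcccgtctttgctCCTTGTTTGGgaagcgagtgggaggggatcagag

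The Acta2 window held 2 such matches, beginning at -84 and -34 from the start, and no match to the strict form. Of 32851 upstream windows of the same length, 8.59% held the relaxed form and 1.47% the strict form, on either strand, since the motif reads alike on both. RefSeq windows were matched for 7 of the 10 genes, and those of Nes, Rgs5, Cspg4, Pdgfra, Mcam and Des held neither form. A match is a run of letters and not a measured site.

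Library totals ranged from 5615941 to 11436652 counts. The library labelled normal Nes-GFP high replicate 1 stood apart before any comparison: 14842 genes had a count there, against 18177 to 20197 in the other 13, and Nes stood at 2.27 CPM, against 26.7 to 36.0 CPM in the other 3 high libraries. The sort removed CD45+ cells, yet the 12 neutrophil and monocyte markers were all detected in every group, with sums of 2300 and 14100 CPM in AML high, 1900 and 36000 CPM in normal high, 6840 to 102000 CPM in AML low and 759 to 107000 CPM in normal low libraries. The 7 endothelial markers counted summed to 1.61 to 73.4 CPM, and Tek, a receptor of endothelial cells, had no count in either high group or in AML low libraries. The 10 markers of Lepr+ CXCL12-abundant stroma summed to 1820 to 60300 CPM. Of the markers of mature smooth muscle, Myh11 was under 1 CPM in 13 libraries. Cnn1, a contractile protein gene, had a level above 0 in 1 library, at 13.4 CPM in AML high replicate 1. Other contractile genes were not absent: the 25 counted from that list, Cnn1 included, summed to 1030 to 6600 CPM. Tpm1, a tropomyosin of the same list, stood at 82.8 to 3770 CPM.

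**Figure D1:**
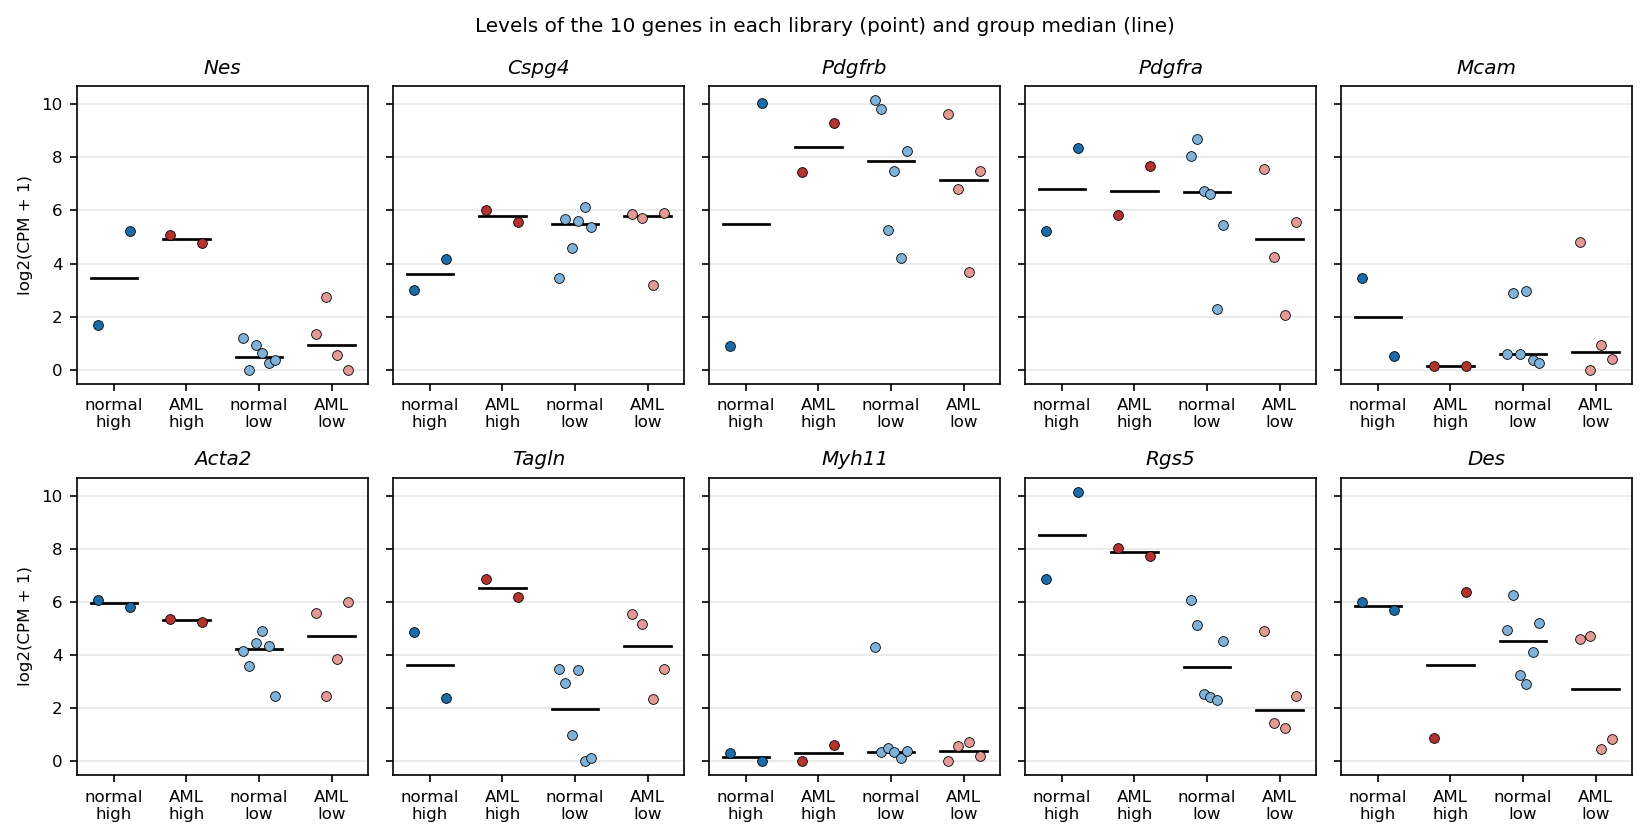
Level of each of the 10 genes as log2(CPM + 1) on the y axis, with 1 point per library and a line at the group median, in normal and AML mice and the Nes-GFP high and low populations. Rgs5 is the 1 gene whose 4 high libraries all lie above the 10 low libraries; Nes does so except for normal high replicate 1.

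Nes, which encodes an intermediate filament protein of progenitor and perivascular cells, checks the labels, because its regulatory elements drive the reporter used for the sort. It stood at 32.3 and 26.7 CPM in AML high and at 2.27 and 36.0 CPM in normal high libraries. In AML low libraries it stood at 1.55, 5.70, 0.462 and 0 CPM, and in normal low libraries it ranged from 0 through a median of 0.427 to 1.29 CPM. Within each kind of mouse the high libraries lay above all low ones, but across all 14 the low value of 5.70 CPM in AML low replicate 2 exceeded the 2.27 CPM of normal high replicate 1. These levels rest on 254 to 261 counts in 3 high libraries, 18 counts in normal high replicate 1 and 0 to 57 counts in the low libraries. Averaged over normal and AML mice, the log2 fold change of Nes, high over low, was 4.52 (SE 1.12), with an edgeR adjusted p of 0.131 and an unadjusted p of 0.00134. DESeq2 gave 4.54 (SE 1.07) with an adjusted p of 0.000704. By edgeR the value was 4.87 (adjusted p = 0.163) without normal high replicate 1 and 3.0 (adjusted p = 0.226) without normal high replicate 2. As the sort itself used Nes elements, the difference is a check of the gate.

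Rgs5, a regulator of G protein signaling and a widely used pericyte marker, was higher in every Nes-GFP high than in every Nes-GFP low library. It stood at 261 and 210 CPM in AML high and at 116 and 1130 CPM in normal high libraries. It stood at 28.6, 1.70, 1.39 and 4.56 CPM in AML low libraries and ranged from 3.93 through 13.5 to 66.2 CPM in normal low libraries. All 4 high libraries lay above all 10 low ones, and the lowest high value was 1.76 times the highest low value. Of the 18152 genes tested, 0.242% had all 4 high libraries above all 10 low ones, and Rgs5 was the 1 member that did. No member had all high libraries below all low ones, which 0.672% of genes tested had. The mean was 25-fold higher in the high than in the low libraries (429 ± 471 CPM, SD, n = 4, against 17.2 ± 21.1 CPM, SD, n = 10). The log2 fold change averaged over both kinds of mice was 4.74 (SE 0.939), with an edgeR adjusted p of 0.0838, an unadjusted p of 0.000202 and rank 42 among the genes tested. It ranged from 3.56 without normal high replicate 2 to 5.61 without AML low replicate 1, and was 5.07 (edgeR adjusted p = 0.127) without normal high replicate 1. In bulk libraries, fewer cells of a type and less RNA per cell cannot be told apart.

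By kind of mouse, the log2 fold change of Rgs5 was 4.78 (SE 1.2, edgeR adjusted p = 0.235) in normal and 4.70 (SE 1.39, edgeR adjusted p = 0.435) in AML mice. The value in normal mice was 2.42 without normal high replicate 2, the library at 1130 CPM, and the value in AML mice ran from 4.33 to 6.56 with 1 library left out. For Nes it was 5.12 (SE 1.46, edgeR adjusted p = 0.270) in normal mice, 2.1 without normal high replicate 2, and 3.92 (SE 1.64, edgeR adjusted p = 0.546) in AML mice. For Rgs5 the test of the difference between both effects had an edgeR adjusted p of 1, with an SE of 1.92 on the log2 scale. Leaving out normal high replicate 1 gave 2 members without overlap, Nes and Rgs5, and so did leaving out AML low replicate 2.

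By edgeR, 0 of the 9 members that passed the filter on low counts had an adjusted p under 0.05 in any of the 6 comparisons, and neither had any other gene (0% of 18152); Myh11 did not pass the filter. At an unadjusted p under 0.05, 2 of the 9, Nes and Rgs5, were higher in the high population when averaged over both kinds of mice, where 2.69% of all genes tested were. Since the sort used Nes elements, Nes in these counts of high against low is a check of the gate. DESeq2 called 1 member, Nes, in normal mice (10.5% of all genes it tested were called) and in the average (11.8%), and 0 in AML mice (6.82%). It called 0 members in the difference between the kinds of mice (4.93%) and 0 in AML against normal mice, in the high (9.90%) and the low population (0.738%). DESeq2 gave Rgs5 no adjusted p, since its rule for outlying counts set the gene aside. Without that rule, an alternative added after the data were seen, Rgs5 had an adjusted p of 3.47e-05 in the average, where 2 members were called (11.5% of all genes). The same setting called 2, Nes and Rgs5, in normal mice (9.69%) and 1, Rgs5, in AML mice (6.47%).

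**Figure D2:**
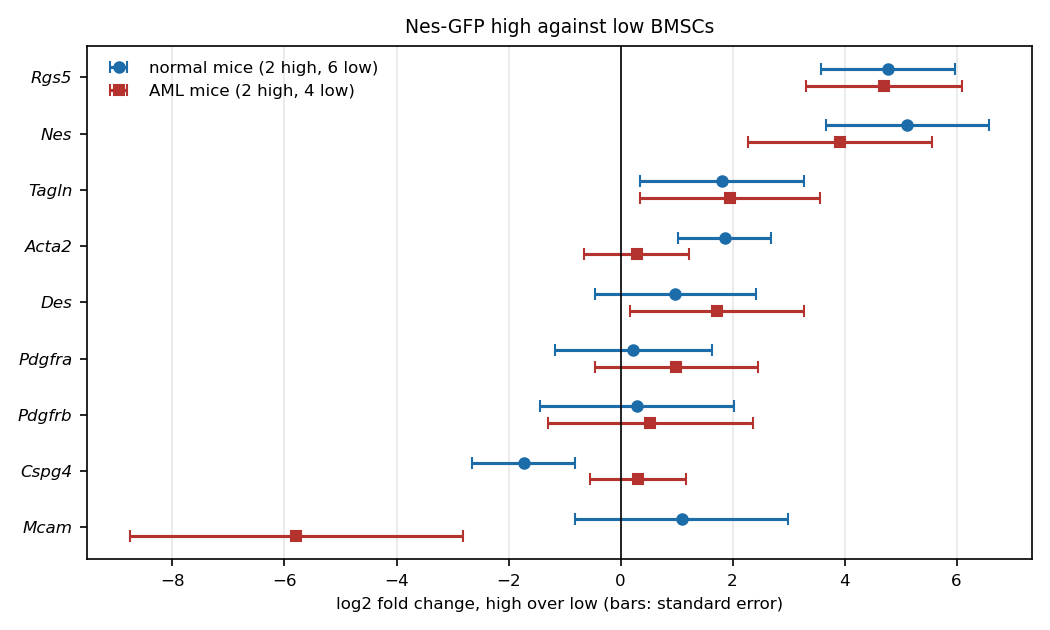
Log2 fold change of Nes-GFP high over low BMSCs by edgeR on the x axis for the 9 genes tested, in normal mice (circles) and AML mice (squares), with bars of 1 standard error. Rgs5 and Nes lie at 3.92 to 5.12 in both kinds of mice, although without normal high replicate 2 they are 2.42 and 2.1 in normal mice, and Mcam lies at -5.79 in AML mice with a standard error of 2.97.

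Of the contractile genes, Acta2 encodes smooth muscle actin. It is near-identical in its coding part to other actin genes, so its counts are uncertain. It stood at 67.1 and 55.5 CPM in normal high and 40.4 and 37.0 CPM in AML high libraries. It ranged from 4.55 through 18.0 to 29.1 CPM in normal low libraries and stood at 46.8, 4.50, 13.3 and 62.1 CPM in AML low ones. The normal high libraries lay above all normal low ones, while AML low replicates 1 and 4 lay above both AML high libraries. The log2 fold change in normal mice was 1.86 (SE 0.825, edgeR adjusted p = 0.430), and averaged over both kinds of mice 1.07 (SE 0.626, edgeR adjusted p = 0.410).

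Tagln, which encodes transgelin, an actin-binding protein of smooth muscle, was highest in AML high libraries, at 115 and 70.8 CPM. It stood at 28.2 and 4.26 CPM in normal high and at 46.0, 35.3, 4.07 and 10.1 CPM in AML low libraries, and it ranged from 0 through 3.86 to 10.1 CPM in normal low ones. The AML high libraries lay above every other library, but the normal high and normal low libraries overlapped. The log2 fold change of high over low was 1.96 (SE 1.61, edgeR adjusted p = 0.715) in AML mice and 1.88 (SE 1.09, edgeR adjusted p = 0.405) averaged over both, the latter 0.82 without normal high replicate 1. Tagln overlaps Pcsk7 and an antisense gene on the other strand, and whether reads were counted by strand is not given in the sources used here.

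Without overlap, 3 members were higher in high than in low libraries of normal mice (Nes, Acta2 and Rgs5), as were 3.47% of all genes tested, and 3 in AML mice (Nes, Tagln and Rgs5), as were 6.91% of all genes. Nes stands in both counts as a check of the gate.

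Myh11, the myosin heavy chain of mature smooth muscle, was nearly absent. It stood at 0 to 0.523 CPM in the 4 high libraries and at 0 to 0.647 CPM in 9 of the 10 low libraries, which is 0 to 7 counts per library. The exception was normal low replicate 1 at 18.9 CPM, or 176 counts. The 3 genes with the pattern most like that of Myh11 over the 14 libraries were immunoglobulin genes, Ighv6-6 (r = 0.922), Igkv12-46 (0.869) and Ighg2c (0.747). These values rest mainly on normal low replicate 1, since Myh11 was near 0 in all other libraries, and do not show that the genes vary together.

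Des, which encodes desmin, the muscle intermediate filament also found in pericytes, stood at 62.8 and 51.1 CPM in normal high libraries but at 0.867 and 81.2 CPM in the AML high ones. It ranged from 6.61 through 23.2 to 75.4 CPM in normal low libraries and stood at 23.2, 25.5, 0.370 and 0.815 CPM in AML low ones. High and low libraries overlapped in both kinds of mice, and the averaged log2 fold change of 1.35 (SE 1.06, edgeR adjusted p = 0.576) turned to -1.41 without AML high replicate 2.

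The receptors and surface proteins did not separate the populations. Pdgfrb, the receptor through which PDGF-B recruits mural cells, spanned the widest range. It stood at 175 and 619 CPM in AML high, at 0.883 and 1050 CPM in normal high and at 798, 110, 12.0 and 176 CPM in AML low libraries, and it ranged from 17.3 through 240 to 1150 CPM in normal low ones. Its 2 normal high libraries were thus the lowest and the second highest of all 14. The averaged log2 fold change was 0.42 (SE 1.26, edgeR adjusted p = 0.934), and it was -4.15 without normal high replicate 2.

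Pdgfra, the other PDGF receptor, known in marrow for marking mesenchymal progenitors, stood at 55.3 and 200 CPM in AML high and 36.6 and 324 CPM in normal high libraries. It stood at 187, 18.2, 3.24 and 46.9 CPM in AML low libraries and ranged from 3.84 through 101 to 407 CPM in normal low ones. The populations overlapped throughout, with an averaged log2 fold change of 0.62 (SE 1.01, edgeR adjusted p = 0.843).

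Cspg4, which encodes the NG2 proteoglycan of pericytes and arteriolar mural cells, stood at 63.1 and 45.8 CPM in AML high and at 7.06 and 17.2 CPM in normal high libraries. It stood at 56.9, 51.1, 8.13 and 58.7 CPM in AML low libraries and ranged from 9.96 through 44.2 to 69.0 CPM in normal low ones. The normal high libraries lay below both AML high ones and overlapped the low libraries only at their low end. The averaged log2 fold change was -0.71 (SE 0.618, edgeR adjusted p = 0.630), and the high against low effect was 2.05 higher on the log2 scale in AML than in normal mice (SE 1.22, edgeR adjusted p = 0.631).

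Mcam, which encodes the adhesion molecule CD146 of perivascular and endothelial cells, was low. It had 1 count in each AML high library (0.124 and 0.105 CPM) and stood at 10.1 and 0.426 CPM in normal high libraries. AML low libraries stood at 26.9, 0, 0.924 and 0.326 CPM and normal low ones ranged from 0.202 through 0.521 to 6.79 CPM. The averaged log2 fold change of -2.35 (SE 1.70, edgeR adjusted p = 0.531) rests on few counts, and it was -0.32 without AML low replicate 1. The difference between AML and normal mice in the high against low effect was -6.88 (SE 3.42, edgeR adjusted p = 0.530), and -2.93 without AML low replicate 1.

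**Figure D3:**
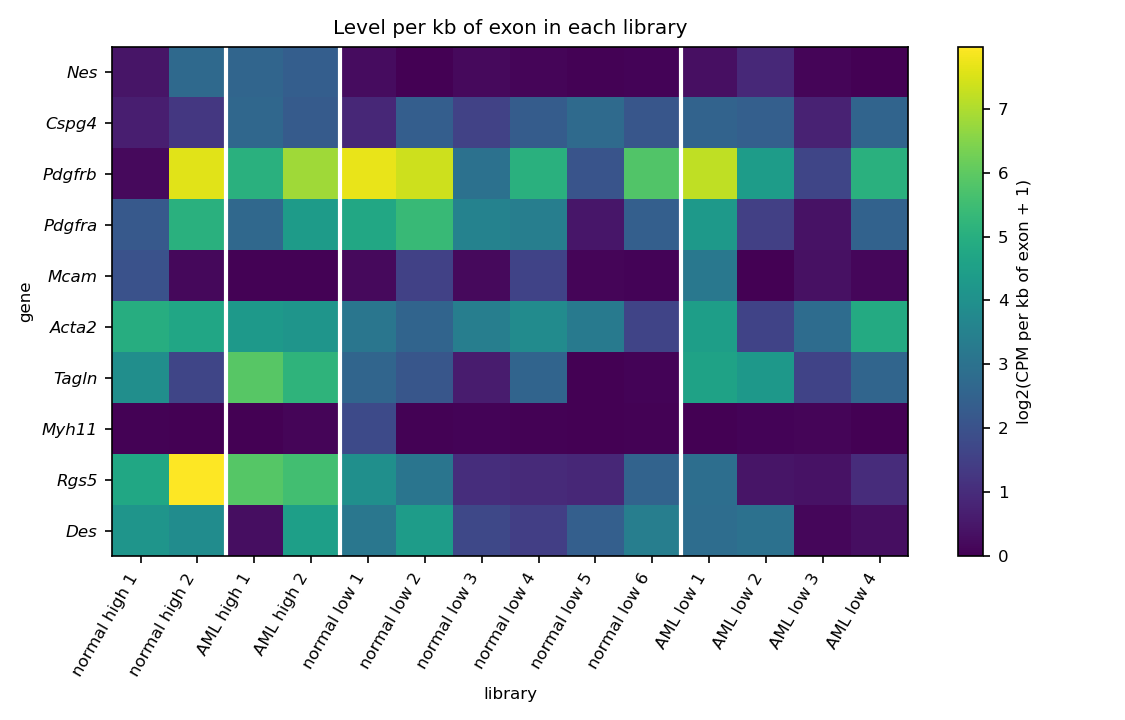
Level per kb of exon, as log2(CPM per kb + 1) in color, for the 10 genes (rows) in each library (columns), with white lines between groups. Pdgfrb has the highest level in 8 of the 14 libraries, Acta2 in 3, and Tagln, Rgs5 and Pdgfra in 1 each. Tagln leads Rgs5 by little in AML high replicate 1 (58.0 against 57.4 CPM per kb).

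Divided by exon length, which allows levels to be compared between genes, Pdgfrb was the highest of the 10 genes in most low libraries. Its median was 43.9 CPM per kb in normal low and 26.1 CPM per kb in AML low libraries, where the median of Nes was 0.0665 and 0.157 CPM per kb. In the 4 high libraries 4 different genes came first: Acta2 in normal high replicate 1 (30.5 CPM per kb), Rgs5 in normal high replicate 2 (249), Tagln in AML high replicate 1 (58.0) and Pdgfrb in AML high replicate 2 (113). Where Rgs5 was not first it came second, at 25.6 CPM per kb in normal high replicate 1 and 57.4 and 46.1 in AML high replicates 1 and 2. Its gap to Tagln in AML high replicate 1 was thus small. Libraries of the same label differed in their leading gene, and Nes itself reached no more than 5.62 CPM per kb.

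In AML against normal mice, the question was whether these genes differed with leukemia within each population. In the high population, 4 members did not overlap between the 2 AML and the 2 normal libraries, against a background of 27.5% of all genes tested. Cspg4 and Tagln were higher in AML, with log2 fold changes of 2.17 (SE 1.05, edgeR adjusted p = 0.421) and 2.52 (SE 2.04, edgeR adjusted p = 0.716), the latter 4.55 without normal high replicate 1 and 1.67 without normal high replicate 2. Mcam and Acta2 were lower, at -5.37 (SE 3.01, edgeR adjusted p = 0.482) and -0.66 (SE 1.10, edgeR adjusted p = 0.941). The value of Mcam was -1.68 without normal high replicate 1, and none of the 4 passed the test. The lack of overlap of Mcam lay within counting error. It rested on 1 count in each AML high library against 3 counts in normal high replicate 2, with overlapping 95% counting intervals. Markers of erythroid cells differed in the same comparison: the 9 of 10 in the table summed to 82.0 and 23.4 CPM in AML high and 3010 and 187 CPM in normal high libraries, all 9 had a lower estimate in AML, and none was at 0 in either group. Of the 9, edgeR called 0, 7 had an unadjusted p under 0.05 (4.54% of all genes were lower at that p) and DESeq2 called 7 (3.96% lower). Other lists leaned too. All 10 Lepr+ CXCL12-abundant stroma and 10 of 12 neutrophil and monocyte markers had a lower estimate in AML. So did 7 of 10 fibroblast, 7 of 10 osteolineage and 7 of 9 lymphoid markers, while 8 of 9 chondrocyte markers had a higher one. DESeq2 called 2 fibroblast and 2 lymphoid markers lower, and edgeR called 0 in these lists. The part of all these markers in the differences of the 4 members was not tested.

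In the low population, 0 members were free of overlap between 4 AML and 6 normal libraries, where 1.11% of all genes were. The smallest unadjusted p belonged to Tagln, with a log2 fold change of 2.36 (SE 1.25, edgeR unadjusted p = 0.0801, adjusted p = 1), and means of 23.9 ± 20.0 CPM over the AML libraries (SD, n = 4) and 4.63 ± 4.83 CPM over the normal ones (SD, n = 6). The other 8 tested members had unadjusted p-values of 0.164 to 0.855. In both populations the AML and normal levels of all tested members except Cspg4 differed by less than 2 standard errors. Cspg4 did so in the low population (0.12, SE 0.644) but not in the high one (2.17, SE 1.05).

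**Figure D4:**
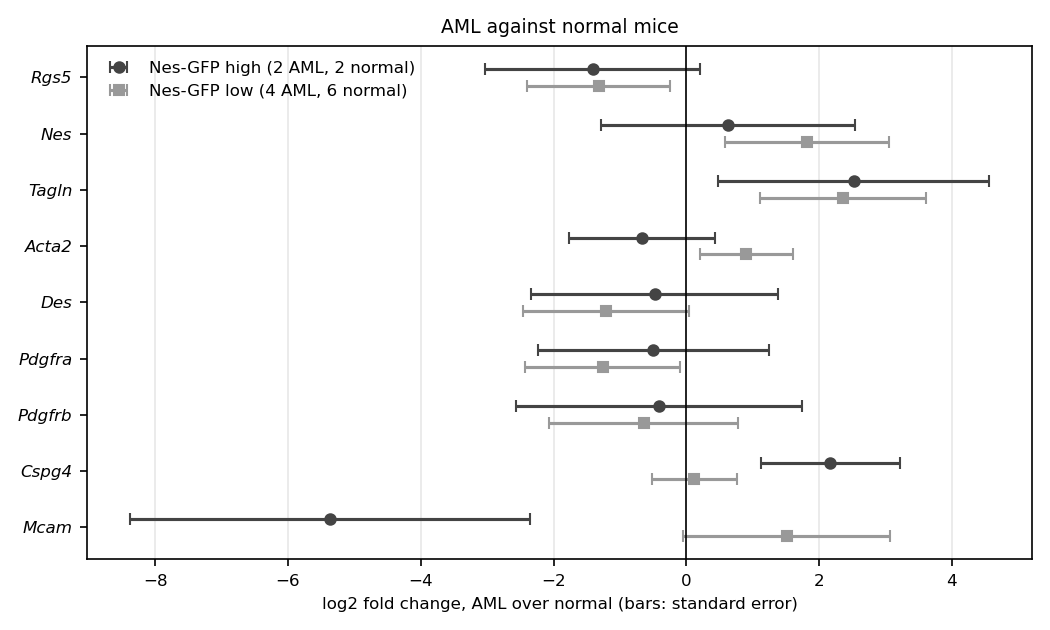
Log2 fold change of AML over normal mice by edgeR on the x axis for the 9 genes tested, in Nes-GFP high (circles) and Nes-GFP low BMSCs (squares), with bars of 1 standard error. Tagln lies above 0 in both populations (2.52 and 2.36), and none of the 18 values has an adjusted p under 0.05.

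The members were also compared with one another across the 10 low libraries, with 45 pairs, log2(CPM + 1) values and 100000 permutations each. By Pearson's r, 0 pairs passed the adjustment over the 45, and 5 pairs had an unadjusted p under 0.05. By Spearman's rho, 2 pairs passed. Pdgfrb and Rgs5 had r = 0.855 (permutation p = 0.00239, adjusted p = 0.0538) and Spearman's rho = 0.891 (permutation p = 0.00134, adjusted p = 0.0301). Without the 2 libraries farthest from the median of Pdgfrb, r was 0.866, and within the 6 normal libraries it was 0.893. Pdgfrb and Pdgfra had r = 0.862 (permutation p = 0.00205, adjusted p = 0.0538) and rho = 0.830 (permutation p = 0.00499, adjusted p = 0.0687), with r = 0.639 without the 2 farthest libraries and 0.799 within normal libraries. Pdgfra and Rgs5 had r = 0.768 (permutation p = 0.0111, adjusted p = 0.167) and rho = 0.891 (permutation p = 0.00109, adjusted p = 0.0301). For this pair r was 0.759 without the 2 libraries farthest from the median of Pdgfra and 0.627 within normal libraries. Within the 4 AML low libraries r was 0.863 for Pdgfrb and Rgs5, 0.989 for Pdgfrb and Pdgfra and 0.911 for Pdgfra and Rgs5. With 4 points each, these values carry little weight.

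**Figure D5:**
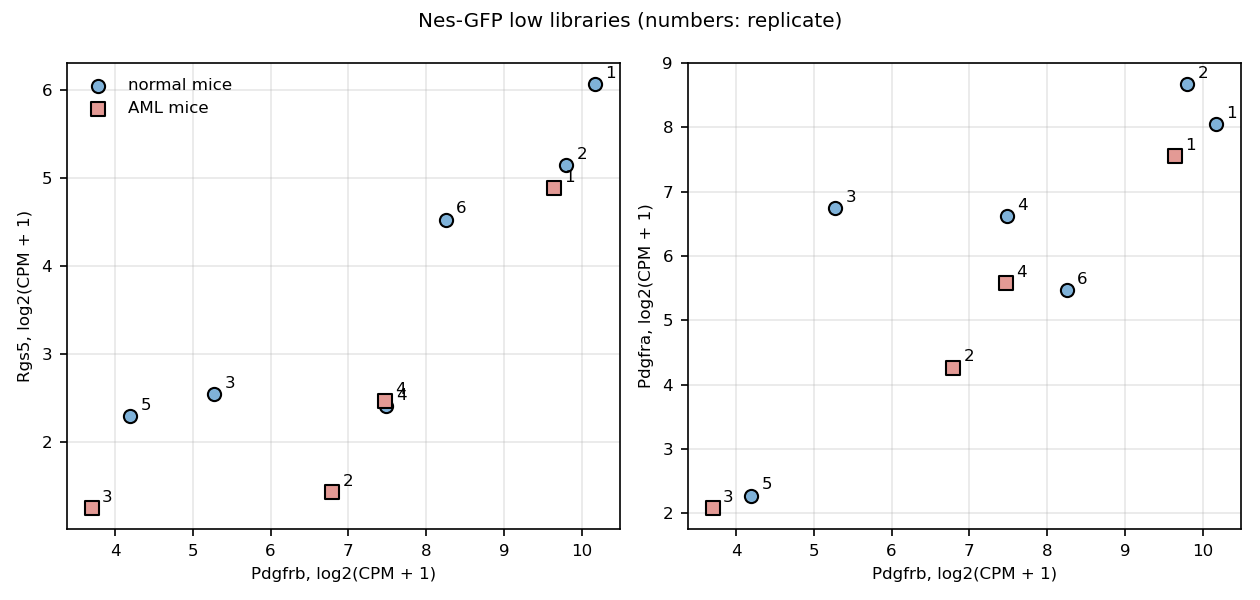
Levels in the 10 Nes-GFP low libraries as log2(CPM + 1), with Pdgfrb on the x axis against Rgs5 (left) and Pdgfra (right), and circles for normal and squares for AML mice, numbered by replicate. Normal low replicates 1 and 2 and AML low replicate 1 lie at the top of both panels, and AML low replicate 3 at the bottom.

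Markers of other cells are given beside these values. The 3 low libraries with the most Pdgfrb, normal low replicates 1 and 2 and AML low replicate 1 (1150, 889 and 798 CPM), also held the largest sums of the 10 Lepr+ CXCL12-abundant stroma markers in the low population, 60300, 58300 and 19600 CPM. The neutrophil and monocyte sum was 1640, 759 and 6840 CPM there. It was 102000 CPM in AML low replicate 3 and 107000 CPM in normal low replicate 3, where Pdgfrb stood at 12.0 and 37.8 CPM, and 36000 CPM in normal high replicate 1, where it stood at 0.883 CPM. Other libraries did not follow that order: the sum was 6080 CPM in normal low replicate 5, with Pdgfrb at 17.3 CPM, and 54000 CPM in normal low replicate 4, with Pdgfrb at 178 CPM, near the low-library median of 177 CPM. Normal high replicate 1 also held the largest osteolineage and fibroblast sums of all libraries, 103000 and 33700 CPM. Its sum of Lepr+ CXCL12-abundant stroma markers was 8990 CPM. The part of these markers in the levels of Pdgfrb and in the correlations was not tested.

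The markers also differed between the populations: all 12 neutrophil and monocyte markers had a lower estimate in the high population averaged over both kinds of mice, with a median log2 fold change of -1.27 against -0.308 over all genes tested, and edgeR called 0 of them, while 1 had an unadjusted p under 0.05 and DESeq2 called 1. Of all genes tested, 13.7% were lower at an unadjusted p under 0.05 and DESeq2 called 10.7% lower and 1.09% higher. The 10 Lepr+ CXCL12-abundant stroma markers all had a higher estimate, with a median of 0.878, and 0 were called by edgeR or DESeq2 or had an unadjusted p under 0.05. All 10 osteolineage markers had a higher estimate too, with a median of 1.15, and 2 had an unadjusted p under 0.05 and DESeq2 called 1. DESeq2 called as lower 3 of 10 fibroblast, 2 of 9 erythroid, 2 of 4 endothelial, 1 of 6 Schwann or glial, 1 of 7 skeletal muscle, 1 of 9 lymphoid, 0 of 9 chondrocyte and 0 of 5 pan-leukocyte markers tested, and edgeR called 0 of any of these lists. The part of these markers in the difference of Rgs5 was not tested.

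Other pericyte genes, from a list of 20 of which 18 were in the table and tested, had a higher estimate in the high population in 15 cases and a lower one in 3, with a median of 1.2 against -0.308 over all genes. By edgeR, the adjusted test called 0 of them, 5 had an unadjusted p under 0.05, all of them higher (2.69% of all genes were), and DESeq2 called 3, Higd1b, Art3 and Abcc9, all higher (1.09% of all genes were). Higd1b, a marker of mural cells, stood at 11.6 and 0 CPM in AML high, 6.56 and 97.7 CPM in normal high and at most 0.405 CPM in the low libraries, so AML high replicate 2 lay with the low libraries (log2 fold change 7.34, SE 1.42, edgeR adjusted p = 0.0819). Art3 had a log2 fold change of 4.23 (SE 0.953, edgeR adjusted p = 0.102) and Abcc9, a subunit of the potassium channel of pericytes, 2.97 (SE 1.02, edgeR adjusted p = 0.218). Both overlapped the low libraries. Art3 stood at 1.01 CPM in normal high replicate 1, against 10.9 CPM in normal low replicate 2. Abcc9 stood at 2.73 CPM in AML high replicate 1, against 33.2 CPM in AML low replicate 1. In AML against normal mice, 6 of the 18 had a higher estimate in the high and 3 in the low population, and edgeR called 0 in either (1 lower and 0 at an unadjusted p under 0.05).

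Other contractile genes of smooth muscle were divided, 11 of the 21 tested having a higher and 10 a lower estimate in the high population, with a median log2 fold change of 0.088. By edgeR, the adjusted test called 0, and 1 in each direction had an unadjusted p under 0.05. Itga8, an integrin subunit, had 3.02 (SE 1.15, edgeR adjusted p = 0.246), Tpm1, a tropomyosin, 1.29 (SE 0.703, edgeR adjusted p = 0.372) and Synpo2, an actin-associated protein, 1.97 (SE 1.21, edgeR adjusted p = 0.437). Pcp4l1 had -7.02 (SE 2.77, edgeR adjusted p = 0.258), and was the 1 gene of the list that DESeq2 called.

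Among 13 tested regulators of smooth muscle genes, 6 had a higher and 7 a lower estimate. Mkl2, a cofactor of serum response factor, had a log2 fold change of -3.12 (SE 0.945, edgeR adjusted p = 0.180), and Tbx18, a transcription factor of mural cells, -5.34 (SE 2.27, edgeR adjusted p = 0.272). Hey1, a Notch target, had no count in the 4 high libraries and in 6 of the 10 low ones, and stood at 5.67 to 12.2 CPM in the other 4. Elk1, a ternary complex factor, had 1.02 (SE 0.835, edgeR adjusted p = 0.601). By edgeR, the adjusted test called 0, 3 lower genes had an unadjusted p under 0.05, and DESeq2 called 2, both lower, against 13.7% and 10.7% of all genes. Myocd, the cofactor that drives smooth muscle genes, had no count in the 4 high libraries and at most 4.86 CPM in the low ones. A count of 0 allows a level of up to 0.314 to 0.426 CPM in the high libraries (3 counts, counting error only).

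PDGF ligands activate the receptors Pdgfra and Pdgfrb. Of 3 ligands counted, all had a higher estimate in the high population, and edgeR and DESeq2 called 0. Pdgfc had a log2 fold change of 2.65 (SE 1.18, edgeR adjusted p = 0.287), Pdgfd 1.37 (SE 1.52, edgeR adjusted p = 0.734) and Pdgfa 0.13 (SE 0.918, edgeR adjusted p = 0.982), while Pdgfb was not analysed here. The intermediate filament genes besides Nes and Des had 4 of 5 tested with a higher estimate, and 0 were called by edgeR or DESeq2 or had an unadjusted p under 0.05. Vim, vimentin, had -0.10 (SE 0.406, edgeR adjusted p = 0.955), Lmna, lamin A/C, 0.03 (SE 0.420, edgeR adjusted p = 1), Synm, synemin, 0.44 (SE 1.63, edgeR adjusted p = 0.949) and Prph, peripherin, 0.77 (SE 2.13, edgeR adjusted p = 0.928).

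The genes whose level over the 14 libraries was most like that of a member, among those with a mean of at least 10 CPM, are given as a description, with no test. For Rgs5 they included Fut11 (r = 0.906) and Vtn (0.893), of which Vtn, vitronectin, is also on the list of pericyte genes, with means of 44.1 and 66.6 CPM in AML and normal high and 3.42 and 11.9 CPM in AML and normal low libraries. For Nes they were Copb1 (0.903), Fam193a (0.881) and Ccdc12 (0.843). For Pdgfrb they were Apbb2 (0.971), Tns2 (0.941) and Dlg5 (0.939), and for Pdgfra they included Plac9a (0.949) and Gm9780 (0.946). The 14 points share depth and the sort, and genes are not independent replicates.

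For Acta2 the most alike were Impa1 (0.888), Slit2 (0.843) and Sel1l (0.829), and for Tagln Igf2 (0.900), Fuca1 (0.891) and Calm2 (0.843). For Des they were Tmem53 (0.921), Cyb5a (0.920) and Ninl (0.906), for Cspg4 Cd82 (0.855), Cpm (0.842) and Prmt7 (0.834), and for Mcam Lipc (0.834), St6gal1 (0.795) and Col22a1 (0.780).

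In GRCm38 (GENCODE release M21), Nes spans chr3:87971078-87980451 (+), Rgs5 chr1:169655501-169695813 (+), Acta2 chr19:34241090-34255590 (-) and Tagln chr9:45929619-45936058 (-). Cspg4 spans chr9:56865033-56899870 (+), Mcam chr9:44134469-44142727 (+), Pdgfra chr5:75152292-75198215 (+), Pdgfrb chr18:61045150-61085061 (+), Des chr1:75360329-75368579 (+) and Myh11 chr16:14194535-14291372 (-). Mcam and Des overlap antisense genes, and Pdgfra overlaps an antisense gene, a microRNA gene and an unassigned transcript.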

How the data were processed

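RNA was amplified by Smart-seq2. Per the paper and the submitters' processing notes, the authors used Trim Galore 0.4.1 for trimming, TopHat2 2.1.0 for alignment (mm10) and featureCounts for counting. The deposited values are counts of reads per gene symbol, not normalized, for 27099 genes, and 13 symbols stand on 2 lines. The table also has 2 library columns that matched no sample and were not used. Reads carry no molecular identifiers, so intervals cover counting error only. No 2 libraries of a group agreed within sampling noise.

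Groups were compared by quasi-likelihood fits in edgeR 4.0.16 under R 4.3.3, two-sided, on 14 libraries in 4 groups with TMM, the genes kept by filterByExpr (minimum count 10, 18152 genes) and Benjamini-Hochberg adjustment across all genes. Alternatives were DESeq2 1.42.0 with and without its outlier rule, limma voom with quality weights (limma 3.58.1), other scalings, filters, sample sets, a replicate block and leaving out each library. The steps were checked on simulated data for the averaged high against low comparison. There edgeR called 0% of genes with a true log2 change of 2 or -2, 44% at 4 and 72% at 6. DESeq2 called 14% at 2, 24% at -2, 72% at 4 and 74% at 6. Of unchanged genes, edgeR called 0.00557% and DESeq2 1.39%. A count of 0 calls by edgeR thus cannot decide on changes of the smaller sizes. Exon lengths and positions come from GENCODE release M21 and upstream sequences from RefSeq. Named genes are the 10 members, the 4 genes of each list with the smallest unadjusted p in the averaged high against low comparison, and the 3 genes most alike to each member, less 3 genes that are not reported here; Cnn1, Myocd and Tek were chosen after their values were seen. The members and lists were chosen with earlier results of these data known.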

Additional observations from a re-analysis of the deposited data

Results flagged for a closer look

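Within the Nes-GFP low groups, 4 of 20 sets of levels (10 genes in 2 groups) held 1 library whose gap to the next was large for the group's range. The limit used is passed by about 1 in 20 sets when values follow a bell-shaped curve. CPM levels are skewed and often near 0, so that rate does not hold here, and no excess over chance can be read from the 4. In AML low libraries, Cspg4 stood at 8.13 CPM in replicate 3, against 51.1 CPM in the next lowest, Mcam at 26.9 CPM in replicate 1, against 0.924 CPM in the next highest, and Rgs5 at 28.6 CPM in replicate 1, against 4.56 CPM in the next highest. In normal low libraries, Myh11 stood at 18.9 CPM in replicate 1, against 0.405 CPM in the next highest.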

How the results depend on the processing

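Calls depended on the tool. DESeq2 called 1746 genes in high against low BMSCs of normal mice, 1103 in AML mice, 2054 in the average and 778 in the difference, and 1602 and 144 in AML against normal mice in the high and low population, where edgeR called 0. It called 1 member, Nes, in normal mice and in the average. Without its outlier rule, added after seeing the data, it called 1804, 1171, 2192, 850, 1696 and 249 genes, and 2, 1 and 2 members in normal mice, AML mice and the average. Voom called 1 gene in AML mice, and a mean of at least 10 CPM 1 gene in AML against normal high libraries. Leaving out 1 library gave 0 to 189 genes in normal mice, 0 to 1 in AML mice, 0 to 193 in the average, 0 to 144 in the difference and 0 to 194 in AML against normal high libraries, and 1 to 2 members without overlap; the largest counts came without normal high replicate 2, except in AML mice, where the 1 gene came without AML low replicate 1, and for the overlap. No member was called by edgeR in these fits. Whether libraries of the same replicate number belong together could not be decided. The correlation of the deviations of same-numbered libraries ran from -0.164 to 0.43, the latter for AML and normal low replicates 3 and the highest between groups. AML low replicate 1 correlated more with normal low replicate 2 (0.348) than with its own number (0.269). In groups of 2 libraries the deviations mirror each other, so those pairs are not independent. The replicate block called 0 genes and turned the averaged log2 fold change of Pdgfrb to -1.17 and of Pdgfra to -0.66, and gave 2.67 for Nes in normal mice; voom turned Pdgfrb to -0.48. Leaving out 1 library gave -4.15 to 1.10 for Pdgfrb, -0.50 to 1.32 for Pdgfra and -1.41 to 1.86 for Des. The cause of these changes was not tested. The other alternatives left the direction of the members' fold changes given in the report as it was. Depth limits Myh11, Mcam and, in the low libraries, Nes most: a count of 0 allows a level of up to 0.275 to 0.489 CPM (3 counts).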
